A study of Rattus norvegicus with 6 samples.

Results

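Lef1, Tcf7, Satb1, Bach2, Bcl11b, Gata3, Ets1, Tox, Runx3 and Ikzf1, 10 transcription factors of the T lineage, were chosen by name and read in single nuclei RNA sequencing (snRNA-seq) counts of rat colon, in T cell nuclei and, as background, in enterocyte nuclei. All 10 were among the 17388 genes listed and among the 15108 genes common to every table. The study asked how colon nuclei of rats with colitis changed under an oral formulation of PL8177, a peptide agonist of the melanocortin-1 receptor, and took colon on day 8 from 9 male Wistar rats, 3 per treatment. Sham rats drank water only. Placebo rats received 5% dextran sulfate sodium (DSS), a salt that injures the colon epithelium, in drinking water for 3 days and then vehicle capsules 2 times daily for 4 days. PL8177 rats received the same DSS course and then capsules with 50 µg PL8177 on the same schedule, so placebo and PL8177 rats shared the injury and sham rats had neither DSS nor capsules. The sample labels name treatment and cell type but not the rat. The tag that opens each nucleus name was taken as its library, and the 9 tags GR12, GR13 and GR15 (sham), GR22, GR23 and GR24 (placebo) and GR41, GR43 and GR44 (PL8177) were taken as the 9 rats.

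T cell identity is set up in the thymus by factors that act in sequence and is then kept by an overlapping set. Gata3 and Bcl11b are needed for commitment to the lineage, Tcf7 (the gene of TCF1) and Lef1 are related HMG-box factors that bind DNA with beta-catenin and mark naive and memory-like T cells, Satb1 folds chromatin in thymocytes, and Bach2 represses effector genes. Ets1 and Ikzf1 (Ikaros) act widely in lymphocytes, Tox is needed for CD4 lineage development and accompanies chronic stimulation, and Runx3 drives the CD8 and tissue-resident programs.

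The T cell tables held 1018 nuclei, and 8782 nuclei were listed as enterocytes. T cell nuclei per library numbered 19 to 91 in 8 libraries and 685 in placebo library GR23, with 8070 to 779009 UMIs (unique molecular identifiers, one per captured RNA molecule) in a library's sum and a median of 364 to 2091 per nucleus. Levels are given below as UMIs per 10000 UMIs of that library and cell type. The label was checked against 18 T cell marker genes and 15 enterocyte marker genes. In the T cell nuclei of the 8 libraries other than GR23, the T cell markers summed to 21.2 to 41.5 UMIs per 10000 UMIs, against 0.0519 to 0.322 in enterocyte nuclei, and the enterocyte markers to 21.2 to 84.5, against 147 to 312. GR23 went against its label. Its T cell nuclei held 1.51 UMIs per 10000 UMIs of T cell markers and 184 of enterocyte markers, with 0 UMIs of Cd3d, Cd3g, Cd2, Cd5, Zap70 and Trat1. Its values are therefore shown by library, and the main edgeR fits and most summaries that include it are followed by the same without it. Counts of factors free of overlap between treatments and exact permutation tests were made only with it. So were shares of all UMIs and correlations. Cd3d, Cd2 and Cd5 had UMIs in 1 T cell library each (GR12), whereas Skap1, Themis, Cd247, Lck and Camk4, which act in T cell receptor signaling, had UMIs in all 9.

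The sequence before the gene start was taken from a RefSeq table (GRCr8), in which 7 of the 10 factors were matched and Bcl11b, Ets1 and Tox were not. The 250 bases before each start were searched on both strands for 4 short motifs that did not overlap one another in the windows shown. The letters CTTTGA, bound by TCF and LEF factors, occur in 13.9% of all 33469 such windows. The RUNX core TGTGGT occurs in 14.5%. The letters AGATAA, bound by GATA factors, occur in 10.3% of them. The core of ETS factors, CCGGAAG, occurs in 7.27%. Of the windows of these 7 genes, only that of the upstream Runx3 start held any of these letters. It is shown first, with both RUNX cores (ACCACA on the strand shown, starting 135 and 127 bases before the start) in capitals. The windows of Lef1, Tcf7, Satb1 and Bach2 follow because these 4 factors shared a pattern over libraries, described below.
Runx3 (chr5:152644020-152644269, plus strand): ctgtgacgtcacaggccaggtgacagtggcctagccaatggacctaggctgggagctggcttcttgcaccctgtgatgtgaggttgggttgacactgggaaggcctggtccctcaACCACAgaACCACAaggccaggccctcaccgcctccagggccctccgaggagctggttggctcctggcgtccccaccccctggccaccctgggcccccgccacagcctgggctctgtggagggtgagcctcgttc
Lef1 (chr2:222340463-222340712, plus strand): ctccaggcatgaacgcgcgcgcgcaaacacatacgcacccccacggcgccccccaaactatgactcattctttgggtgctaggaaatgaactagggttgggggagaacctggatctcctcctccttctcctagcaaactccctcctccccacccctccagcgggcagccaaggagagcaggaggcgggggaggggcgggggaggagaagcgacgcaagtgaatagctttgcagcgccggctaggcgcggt
Tcf7 (chr10:36954280-36954529, minus strand): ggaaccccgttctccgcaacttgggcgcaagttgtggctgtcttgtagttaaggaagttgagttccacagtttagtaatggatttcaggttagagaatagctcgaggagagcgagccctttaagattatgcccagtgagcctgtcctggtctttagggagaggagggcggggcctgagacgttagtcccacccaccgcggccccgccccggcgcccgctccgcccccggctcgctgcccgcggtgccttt
Satb1 (chr9:4989926-4990175, minus strand): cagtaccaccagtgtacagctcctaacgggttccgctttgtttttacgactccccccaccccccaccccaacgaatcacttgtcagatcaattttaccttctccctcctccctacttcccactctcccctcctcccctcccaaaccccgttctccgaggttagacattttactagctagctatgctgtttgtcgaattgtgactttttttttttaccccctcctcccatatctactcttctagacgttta
Bach2 (chr5:51513155-51513404, plus strand): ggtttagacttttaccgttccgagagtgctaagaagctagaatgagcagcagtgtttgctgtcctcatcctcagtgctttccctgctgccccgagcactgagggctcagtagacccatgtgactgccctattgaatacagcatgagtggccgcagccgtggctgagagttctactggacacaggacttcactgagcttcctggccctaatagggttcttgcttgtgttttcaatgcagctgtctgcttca

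Each factor was higher in T cell than in enterocyte nuclei in 5 (Satb1) to 9 of the 9 libraries. Over the 8 libraries without GR23, summed UMIs gave a level in T cell nuclei 407 times that in enterocyte nuclei for Runx3, 327 for Lef1, 318 for Ikzf1, 165 for Ets1, 163 for Tcf7, 134 for Gata3, 132 for Satb1 and 85.8 for Bach2. From the same sums the ratio was 12.6 for Bcl11b and 2.70 for Tox. With GR23 included the same ratios ran from 1.52 (Tox) to 205 (Runx3). Such sums weigh the libraries with most UMIs, and the order changed when each library counted equally. The median log2 ratio over the 9 libraries, with 0.1 UMIs per 10000 added to each level, was 6.06 for Ets1, 5.59 for Ikzf1, 4.38 for Runx3, 3.36 for Tcf7, 3.14 for Gata3, 3.14 for Lef1, 3.13 for Bcl11b and 2.61 for Bach2. Without GR23 these medians were 6.07, 5.70, 4.41, 3.66, 3.14, 3.66, 3.20 and 2.61, in the same order. The median was smallest for Tox (1.43, and 1.48 without GR23) and Satb1 (1.18, and 2.16 without GR23). Of the 9 factors with at least 50 UMIs, 3 (Ets1, Runx3 and Ikzf1) were higher in T cell than in enterocyte nuclei in all 9 libraries, where 2.45% of all genes were; in the 8 libraries without GR23 it was 4 of 9 (Bcl11b in addition), against 6.49% of all genes. Cell types had been assigned from clusters of the same expression values, so no test was made of this difference.

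**Figure D1:**
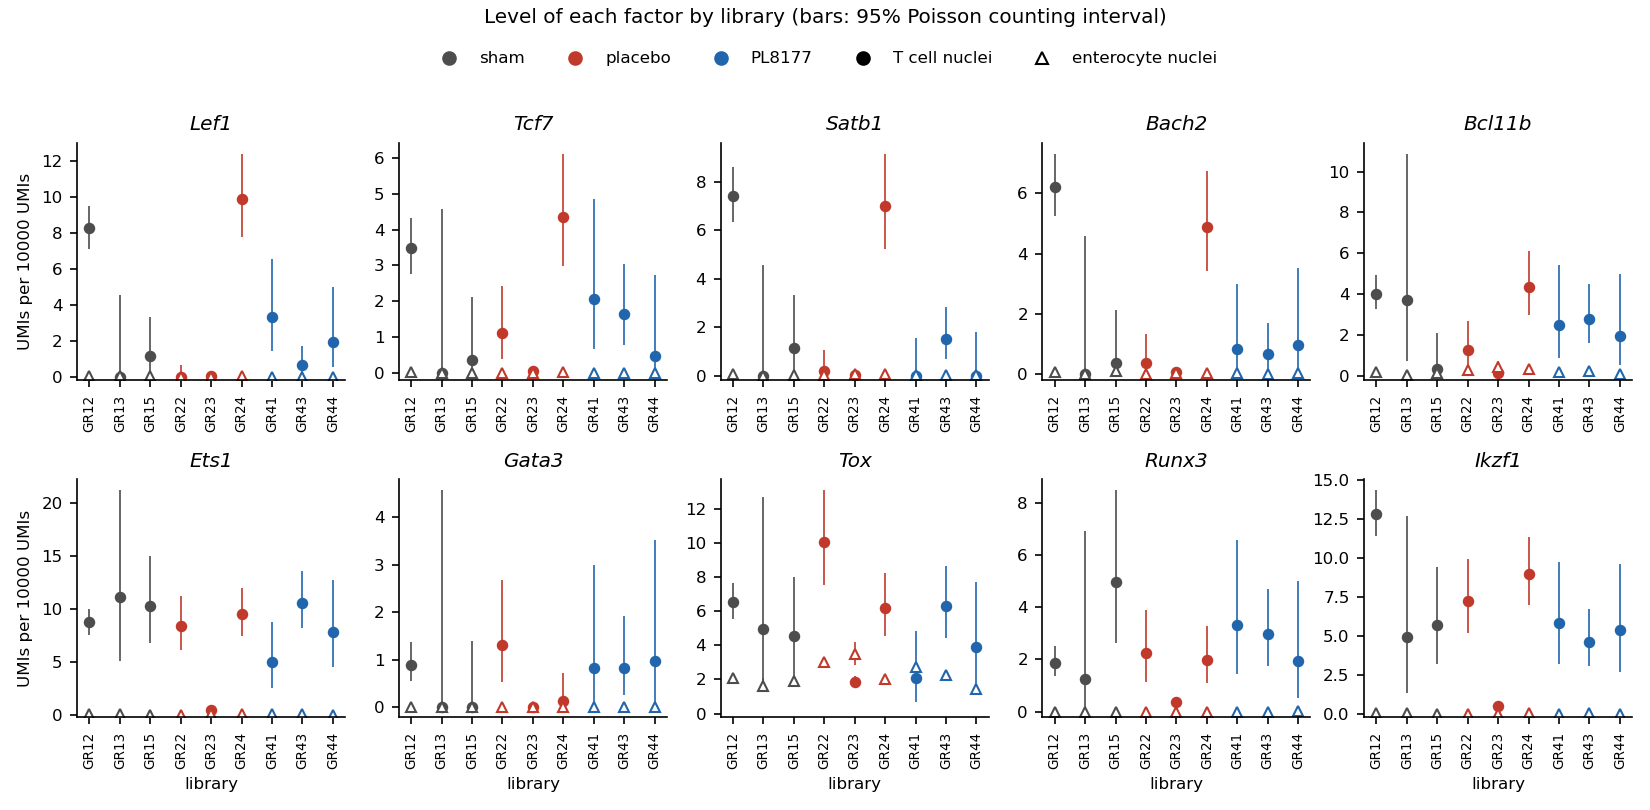
UMIs per 10000 UMIs (y axis) of each factor in the 9 libraries (x axis), T cell nuclei as filled circles and enterocyte nuclei as open triangles, with 95% Poisson counting intervals and sham in grey, placebo in red and PL8177 in blue. Lef1, Tcf7, Satb1 and Bach2 are highest in the T cell nuclei of sham library GR12 and placebo library GR24, with the least contrast for Tcf7, while Ets1 is between 4.99 and 11.2 in every T cell library but GR23.

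Lef1, Tcf7, Satb1 and Bach2 had their highest levels in the T cell nuclei of 1 sham and 1 placebo library, with the least contrast for Tcf7. Lef1 measured 8.26, 0 and 1.14 UMIs per 10000 UMIs in the T cell nuclei of sham libraries GR12, GR13 and GR15, 0, 0.0642 and 9.89 in those of placebo libraries GR22, GR23 and GR24, and 3.33, 0.662 and 1.95 in those of PL8177 libraries GR41, GR43 and GR44. Sham GR12 and placebo GR24 were the high libraries, the other 7 lay at or below 3.33, and the 3 treatments overlapped. Tcf7, in the same library order, measured 3.49, 0 and 0.381 in sham, 1.12, 0.0642 and 4.35 across placebo and 2.08, 1.66 and 0.489 in PL8177, again highest in GR24 and GR12. Its GR41 level had a 95% Poisson interval of 0.675 to 4.85. By share of nuclei the contrast was weaker. A Tcf7 UMI was found in 33.8% of GR12 and 19.8% of GR24 nuclei, against 19.2% in GR22, 18.2% in GR41 and 17.9% in GR43. A Lef1 UMI was found in 45.9% of GR12, 25.3% of GR24 and 22.7% of GR41 nuclei, and in at most 8.57% elsewhere. Satb1 measured 7.41, 0 and 1.14 in sham, 0.186, 0.0257 and 6.99 across placebo and 0, 1.49 and 0 in PL8177. For Bach2 the levels were 6.21, 0 and 0.381 in sham, 0.373, 0.0770 and 4.88 across placebo and 0.832, 0.662 and 0.977 in PL8177. GR12 and GR24 together held 93.8% of all Satb1 UMIs of T cell nuclei, 91.8% of Lef1, 91.5% of Bach2 and 80.4% of Tcf7. Lower shares were 71.9% of Bcl11b, 71.1% of Ikzf1, 57.9% of Gata3, 56.9% of Ets1, 43.0% of Tox and 40.7% of Runx3. Such shares also follow library size. Per 10000 UMIs summed over GR12 and GR24, against the 6 others without GR23, Bcl11b measured 4.12 and 1.97 and Ikzf1 11.9 and 5.76. In the same order Ets1 measured 8.91 and 8.97, Tox 6.47 and 6.27, Gata3 0.708 and 0.830 and Runx3 1.90 and 2.90. Ets1, Tox, Gata3 and Runx3 were thus not concentrated in GR12 and GR24. The zeros carry unequal weight. With the limit of a 0 set at 3 counts, the 0 Lef1 UMIs of GR13 allow a level of up to 3.72 per 10000, whereas the 0 of GR22 allow up to 0.559.

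Summed, these 4 factors measured 25.4 (95% Poisson interval 23.4 to 27.5) UMIs per 10000 UMIs in GR12 and 26.1 (95% Poisson interval 22.6 to 30.0) in GR24. In the 6 other libraries apart from GR23 they ran from 0 to 6.24 (95% Poisson interval 3.49 to 10.3), the highest being PL8177 library GR41, and GR23 held 0.231. They made up 42.1% of all UMIs of the 10 factors in GR12 and 45.6% in GR24, and 0 to 24.2% in the other 7 libraries. The remaining 6 factors summed to 19.5 to 34.9 in the 8 libraries without GR23, with 34.9 in GR12 and 31.1 in GR24. The grouping into 4 and 6 was made after the values were seen and has no test. Intervals cover counting error only and not the clustering of UMIs in nuclei. In GR12 the most in 1 nucleus was 28 of the 194 Lef1 UMIs and 28 of the 174 Satb1 UMIs.

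**Figure D2:**
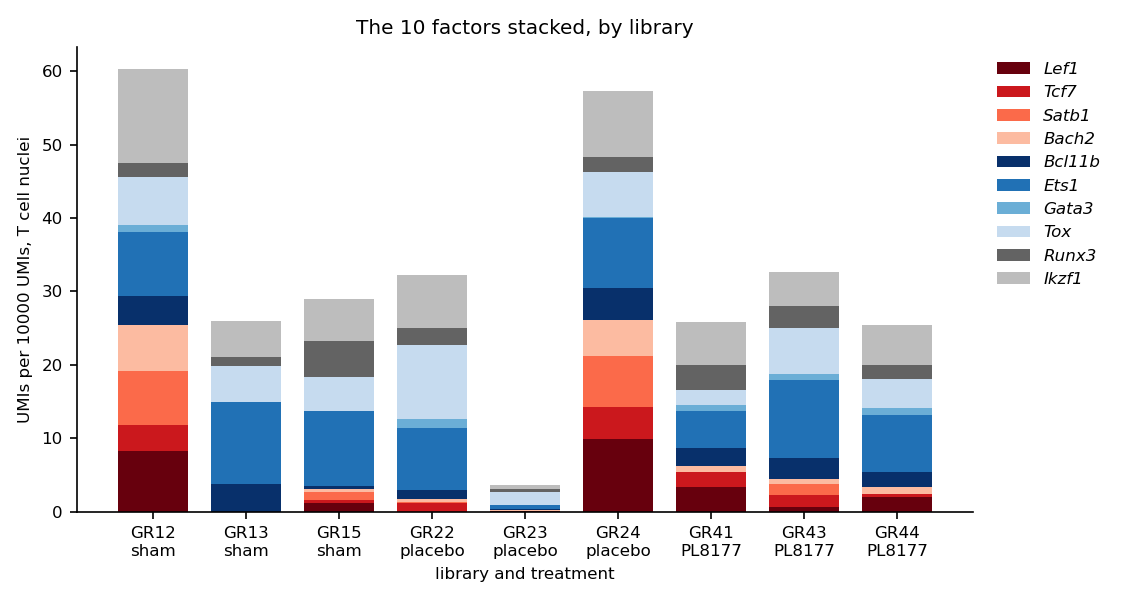
UMIs per 10000 UMIs of the 10 factors in T cell nuclei, stacked, by library and treatment. The bars of GR12 (60.3) and GR24 (57.2) stand above the 25.4 to 32.6 of the 6 other libraries apart from GR23 (3.61), with the red shades of Lef1, Tcf7, Satb1 and Bach2 as most of the excess.

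Depth differed in the pair, with a median of 2091 UMIs per T cell nucleus in GR12, the deepest library, and 560 in GR24. The share of T cell nuclei with a UMI of any of the 4 factors was 62.2% (46 of 74 nuclei, exact 95% interval 50.1 to 73.2%) in GR12 and 44.0% (40 of 91 nuclei, exact 95% interval 33.6 to 54.8%) in GR24. It was 0 to 31.8% in the other 7 libraries (0 of 19 nuclei in GR13, which allows a share of up to 15.8%), with 1.75% in GR23, and 1.37 to 2.68% in the enterocyte nuclei of a treatment (median 1229 to 714 UMIs). By library the enterocyte share reached 5.60%, and at most 1.83% without GR12 and GR24. The summed level of the 4 factors in enterocyte nuclei was 0.190 UMIs per 10000 UMIs in GR12, 0.181 in GR24, 0.207 in GR15 and at most 0.0965 elsewhere. After every nucleus was thinned to 300 UMIs, the T cell shares were 30.1% in GR12, 32.5% in GR24 and 0 to 19% in the other 7, so that GR12 and GR24 were still the highest at equal depth. Their intervals (19.9 to 42.0% and 22.6 to 43.7%) overlapped that of GR41 (5.45 to 41.9%, from 21 nuclei). Marker content also moved with the pattern. T cell markers were highest in GR12 (41.5 UMIs per 10000 UMIs) and GR24 (39.2), against 1.51 to 35.8 in the other 7, and enterocyte markers lowest (21.2 and 29.4), against 41.2 to 184. B cell markers were high in GR12, at 6.81 UMIs per 10000 UMIs against 1.19 in GR24 and 0 to 2.08 in the other 7, led by Ebf1 and Bank1, and the part of B cells in the factors' levels was not tested. Sorting GR12 nuclei by the marker list with the most UMIs, 4 nuclei led by B cell markers held 13 of the 596 UMIs of the 4 factors, and 40 nuclei led by T cell markers held 460. In nuclei led by T cell markers alone, the 4 factors reached 42.7 (95% Poisson interval 38.9 to 46.8) per 10000 in GR12 and 56.6 (95% Poisson interval 48.0 to 66.4) in GR24, and 0 (GR13) to 16 (95% Poisson interval 9.31 to 25.6) (GR43) in the other 7.

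**Figure D3:**
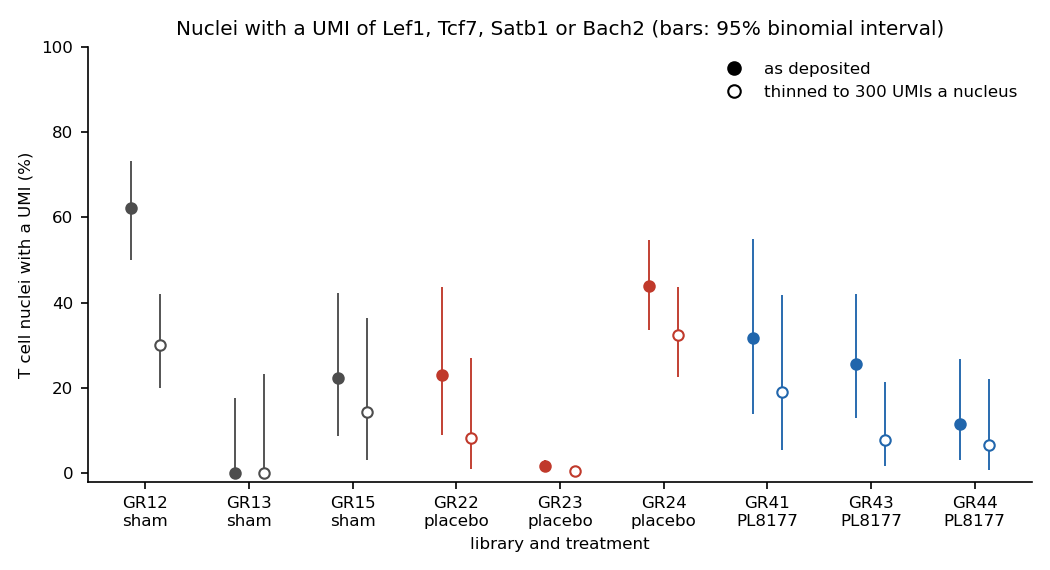
Percent of T cell nuclei in which 1 or more UMIs were of Lef1, Tcf7, Satb1 or Bach2 (y axis) by library and treatment (x axis), filled as deposited and open after thinning to 300 UMIs a nucleus, with exact 95% binomial intervals. GR12 and GR24 are the highest in both settings, at 62.2 and 44.0% as deposited and 30.1 and 32.5% thinned.

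Bcl11b, the zinc finger factor of T cell commitment, measured 4.04, 3.72 and 0.381 UMIs per 10000 UMIs in sham, 1.30, 0.154 and 4.35 across placebo and 2.49, 2.81 and 1.95 in PL8177 T cell nuclei. GR24, GR12 and GR13 were its highest libraries, and the 3 UMIs of GR13 leave an interval of 0.767 to 10.9. Gata3, which also directs type 2 helper cells, was sparse, with 38 UMIs in all. It measured 0.894, 0 and 0 in sham, 1.30, 0 and 0.132 across placebo and 0.832, 0.828 and 0.977 in PL8177, and its PL8177 level of 0.879 ± 0.0853 (SD, n = 3) rested on 2, 5 and 2 UMIs.

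Ets1, an ETS-family factor of lymphocytes, was present in every library. Its levels were 8.72, 11.2 and 10.3 in sham, 8.39, 0.475 and 9.49 across placebo and 4.99, 10.6 and 7.82 in PL8177, a range of 4.99 to 11.2 outside GR23, whose 0.475 was far below every other library. Ikzf1 measured 12.8, 4.96 and 5.72 in sham, 7.27, 0.501 and 8.97 across placebo and 5.82, 4.64 and 5.38 in PL8177 and was highest in GR12. Tox measured 6.55, 4.96 and 4.58 in sham, 10.1, 1.86 and 6.20 across placebo and 2.08, 6.29 and 3.91 in PL8177, highest in placebo GR22. Runx3 measured 1.87, 1.24 and 4.96 in sham, 2.24, 0.385 and 1.98 across placebo and 3.33, 2.98 and 1.95 in PL8177, highest in sham GR15. For each of the 10 factors the sham, placebo and PL8177 libraries overlapped when GR23 was counted. For Ikzf1, placebo and PL8177 overlapped only through GR23. Its levels in GR22 (7.27) and GR24 (8.97) lay above all 3 PL8177 libraries (4.64 to 5.82). How many genes split this way without GR23 was not counted.

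The comparisons with placebo ask what DSS injury and PL8177 changed in the T cells of the inflamed colon, and that of PL8177 with sham sets treated against uninjured rats. Counts summed by library were tested with the quasi-likelihood test of edgeR, with Benjamini-Hochberg adjustment over 1828 genes. Of the 10 factors 7 were tested, and Satb1, Bach2 and Gata3 fell below its filter on low counts. Of these 7, 0 were called at an adjusted p below 0.05 in any of the 3 comparisons and 0 had an unadjusted p below 0.05, and the share of all genes called was 0% in each. Over all genes, 90, 18 and 22 had an unadjusted p below 0.05 in sham against placebo, PL8177 against placebo and PL8177 against sham. DESeq2 called 0 factors, and 0 of 1806 genes with an adjusted p. With no filter on low counts, 0 of all 10 factors were called, where 0.233% (sham against placebo), 0.0283% (PL8177 against placebo) and 0% (PL8177 against sham) of 14148 genes were. In that fit 2 factors had an unadjusted edgeR p below 0.05 in PL8177 against sham (smallest 0.00339), beside 2.35% of genes. In PL8177 against placebo 1 did (0.0309), beside 4.28% of genes, and in sham against placebo 0 did, beside 8.79%. Of the 9 factors with at least 50 UMIs, 0 had all 3 libraries of one treatment above or below those of another, where 4.32% of genes were wholly above and 4.46% wholly below in sham against placebo, 3.15% of genes were wholly above and 3.12% wholly below in PL8177 against placebo and 4.87% of genes were wholly above and 4.38% wholly below in PL8177 against sham. The exact two-sided permutation p of the 10 factors ran from 0.2 to 1.0, and 3 libraries against 3 cannot go below 0.1. These counts and permutation tests include GR23 and were not repeated without it.

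For the 4 factors high in GR12 and GR24, the SD between libraries exceeded the mean in sham and in placebo. Lef1 averaged 3.13 ± 4.47 (SD, n = 3) UMIs per 10000 UMIs in sham, 3.32 ± 5.69 in placebo and 1.98 ± 1.33 in PL8177 T cell nuclei, and its log2 fold change was 0.31 (SE 1.32) in sham against placebo and -0.84 (SE 1.48) in PL8177 against placebo. Tcf7 averaged 1.29 ± 1.91, 1.84 ± 2.23 and 1.41 ± 0.824, with log2 fold changes of 0.12 (SE 1.07) and -0.28 (SE 1.17). Satb1 averaged 2.85 ± 3.99, 2.40 ± 3.97 and 0.497 ± 0.860, and Bach2 2.20 ± 3.48, 1.78 ± 2.69 and 0.824 ± 0.158. For these 4 the PL8177 mean was the lowest in Lef1, Satb1 and Bach2 by less than the SD of either other treatment. Over placebo libraries GR22 and GR24 alone (n = 2), Lef1 averaged 4.95 ± 6.99 (SD), Tcf7 2.74 ± 2.29, Satb1 3.59 ± 4.81 and Bach2 2.63 ± 3.19.

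Ets1 averaged 10.1 ± 1.23 (SD, n = 3) in sham, 6.12 ± 4.92 in placebo and 7.80 ± 2.80 in PL8177, and its log2 fold change was 0.64 (SE 0.755) in sham and 0.37 (SE 0.750) in PL8177 against placebo. Runx3 averaged 2.69 ± 1.99, 1.53 ± 1.00 and 2.75 ± 0.713, with 0.88 (SE 0.680) and 0.90 (SE 0.674). Both placebo SDs include GR23, the lowest library for both factors. Over GR22 and GR24 alone (n = 2) Ets1 averaged 8.94 ± 0.782 (SD), Runx3 2.11 ± 0.183, Ikzf1 8.12 ± 1.20, Tox 8.13 ± 2.74, Bcl11b 2.83 ± 2.15 and Gata3 0.718 ± 0.829. Ikzf1 averaged 7.83 ± 4.33, 5.58 ± 4.48 and 5.28 ± 0.599, with 0.56 (SE 0.749) and -0.09 (SE 0.767). Tox averaged 5.36 ± 1.05, 6.04 ± 4.10 and 4.09 ± 2.11, with -0.21 (SE 0.593) and -0.55 (SE 0.596), and Bcl11b 2.71 ± 2.03, 1.94 ± 2.17 and 2.42 ± 0.435, with 0.54 (SE 0.906) and 0.40 (SE 0.923). Over the 7 factors tested, the median log2 fold change was 0.54 in sham against placebo (6 higher, 1 lower), -0.09 in PL8177 against placebo (3 higher, 4 lower) and -0.35 in PL8177 against sham (1 higher, 6 lower), beside -0.12, -0.12 and 0.05 over all genes tested. The first pair of comparisons shares the placebo libraries, and the 7 are those that passed the filter.

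Without GR23, 9 of the 10 factors were tested among 1390 genes (Gata3 was not) and 0 were called, where 1 gene (Clca4, a chloride channel regulator of epithelium) was called in PL8177 against sham, 0.0719% of those tested, and 0% in both other comparisons. The medians over the 9 became 0.03 (5 higher, 4 lower), -0.93 (1 higher, 8 lower) and -0.54 (1 higher, 8 lower), beside -0.04, -0.01 and 0.01 over all genes. The log2 fold change of Ets1 became 0.04 in sham and -0.20 in PL8177 against placebo, and that of Runx3 0.27 and 0.38. In PL8177 against placebo, Satb1 stood at -2.28 (SE 1.06) with an adjusted p of 0.974 (0.886 to 1.000 over the alternatives that tested it) and Bach2 at -1.84 (SE 0.983). In PL8177 against sham, Satb1 stood at -2.43 (SE 0.995) with an adjusted p of 0.916 and Bach2 at -2.15 (SE 0.914) with an adjusted p of 0.921. Satb1 and Bach2 had unadjusted edgeR p below 0.05 there, Satb1 also in PL8177 against placebo, and 0 factors did in sham against placebo, beside 67 (4.82%) of the 1390 genes in PL8177 against sham, 63 (4.53%) of the 1390 genes in PL8177 against placebo and 35 (2.52%) of the 1390 genes in sham against placebo. With all 9 libraries Satb1 and Bach2 lay below the filter. Without GR23 they and Tcf7 passed it only through sham GR12 and placebo GR24, and through no PL8177 library. Their lower PL8177 values, and the small p of Satb1 and Bach2, are partly set by that entry and are no evidence of a difference. The PL8177 medians over the 9 factors include these factors and carry the same limit. Satb1 rested on GR43 in PL8177, which held all 9 UMIs. Without GR43 its fitted change was -7.95 in PL8177 against placebo and -8.57 in PL8177 against sham, values set by the prior count and not bounds, and under the other alternatives that tested it no closer to 0 than -1.32 and -1.95. The fitted change of Lef1 turned on GR24 and GR12, reaching 5.65 in sham against placebo without GR24, when placebo Lef1 rested on 5 UMIs, and -2.12 without GR12.

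**Figure D4:**
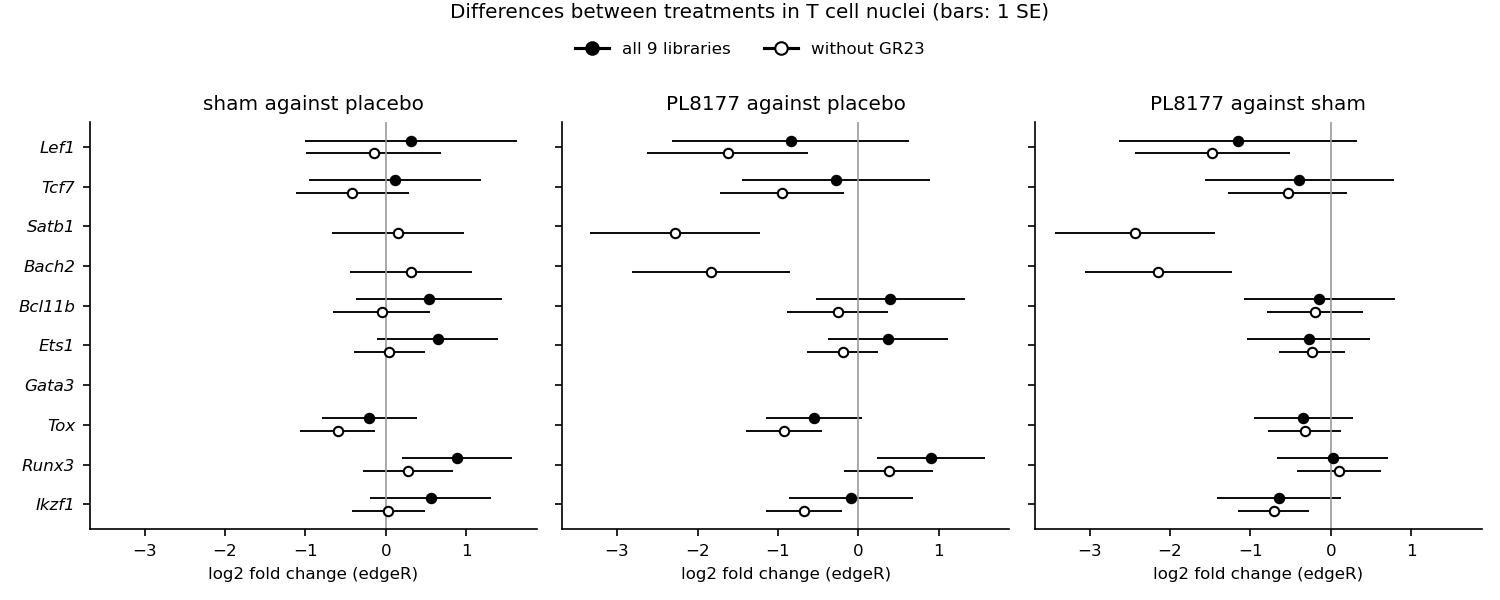
Log2 fold changes by edgeR (x axis) of the factors tested (y axis) in T cell nuclei for the 3 comparisons, filled with all 9 libraries and open without GR23, with bars of 1 SE. Most filled points lie within 1 SE of 0, and Satb1 in PL8177 against sham without GR23 (-2.43) lies farthest from it.

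Other gene lists in the T cell fit also held 0 called genes. Of 26 other lymphoid transcription factors, 11 were tested, with a median log2 fold change of 0.44 in sham and 0.39 in PL8177 against placebo (0.18 and 0.24 without GR23). Tcf12, Runx1, Zeb2 and Fli1 held the most UMIs among them. Of 18 T cell markers, 5 were tested, with medians of 0.19 and -0.09, and 4 without GR23, with medians of -0.23 (1 higher, 3 lower) and -0.62 (0 higher, 4 lower). The enterocyte markers moved with GR23. All 9 tested were lower in sham and in PL8177 than in placebo, with medians of -1.63 and -0.60, and these became -0.28 and 0.88 over 8 markers without it. The 10 enterocyte transcription factors tested, among them Hnf4a, Elf3 and Klf5, went from -0.50 and -0.66 to 0.07 and 0.28 (6 tested). Markers of B cells, myeloid cells, natural killer and innate lymphoid cells, and stroma had 0 genes tested. Their part in the factors' levels was not tested.

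The factors were found together in single nuclei. In the 333 T cell nuclei outside GR23, 131 (39.3%) held UMIs of at least 3 of the 10 factors, against 11 of 685 in GR23 and 18 of 8782 enterocyte nuclei. Thinned to 300 UMIs these were 41 of 304 T cell nuclei and 0 of 8144 enterocyte nuclei, which allows a share of up to 0.0368%. Of the 68 nuclei with a Lef1 UMI, 45 also held Satb1, 43 Bach2 and 38 Tcf7, which were found in 65, 64 and 61 of the 333. Runx3, of the CD8 program, was found in 11 of the 68 (16.2%) and in 76 of the 333. Within GR12, 26 of the 34 Lef1 nuclei held Bach2, found in 34 of 74, and 7 held Runx3, found in 21. Within GR24, 17 of the 23 Lef1 nuclei held Satb1, found in 22 of 91, and 3 held Runx3, found in 12. After thinning, 12 of 32 Lef1 nuclei held Bach2, found in 24 of 304, and 2 held Runx3, found in 30. These nuclei come mostly from GR12 and GR24 and differ in depth, and no test was made.

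At least 1 of the 10 factors was found in 85.8% of sham, 30.7% of placebo and 66.7% of PL8177 T cell nuclei, beside 22.6, 35.5 and 30.5% of enterocyte nuclei. Median depths were 1146, 731 and 658 UMIs per T cell nucleus and 714, 1202 and 1229 per enterocyte nucleus in the same order. The placebo share was 23.1% in GR23, within the range of the enterocyte shares, and 75.2% in GR22 and GR24 together. At 300 UMIs a nucleus, the T cell shares were 64.8, 15.4 (56.1 without GR23) and 49.4%, and the enterocyte shares 7.08, 11.1 and 9.04%.

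Sorting the T cell nuclei by the marker list with the most UMIs showed where each factor lay. Outside GR23, 139 nuclei were led by T cell markers and held 87.4 (95% Poisson interval 83.2 to 91.7) UMIs of the 10 factors per 10000 UMIs, and 106 led by enterocyte markers held 25.8 (95% Poisson interval 23.6 to 28.0). Ets1 measured 17.3 in the first and 4.15 in the second, Lef1 12 and 2.80, and Tox 9.73 and 6.13. In 24 nuclei led by myeloid markers, Ikzf1 measured 16.5 (95% Poisson interval 13.2 to 20.4) on 85 UMIs and Runx3 4.86 (95% Poisson interval 3.15 to 7.18) on 25, against 15.4 and 2.74 in nuclei led by T cell markers. Ets1 and Bach2 had 0 UMIs there (which allows up to 0.584 per 10000), and Lef1, Tcf7, Satb1 and Bach2 together 0.778. Ikaros and Runx factors act in myeloid cells as well as lymphocytes, so a library's Ikzf1 level includes these nuclei. The myeloid list set the cell types apart poorly. It summed to 1.24 to 8.77 UMIs per 10000 UMIs in T cell nuclei outside GR23 and 2.45 to 4.07 in enterocyte nuclei. Mertk, its gene with most UMIs, measured 1.76 to 2.40 in enterocyte nuclei, so nuclei led by this list need not be myeloid. Gata3, which innate lymphoid cells of type 2 also use, had 9 of its 38 UMIs in 4 nuclei led by natural killer or innate lymphoid markers. In GR23, 649 of 685 nuclei were led by enterocyte markers and held 2.75 UMIs of the 10 factors per 10000 UMIs, whereas its 13 nuclei led by T cell markers held 47.0 (95% Poisson interval 33.9 to 63.6), within the 30.5 to 113 of the same class in the other 8.

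**Figure D5:**
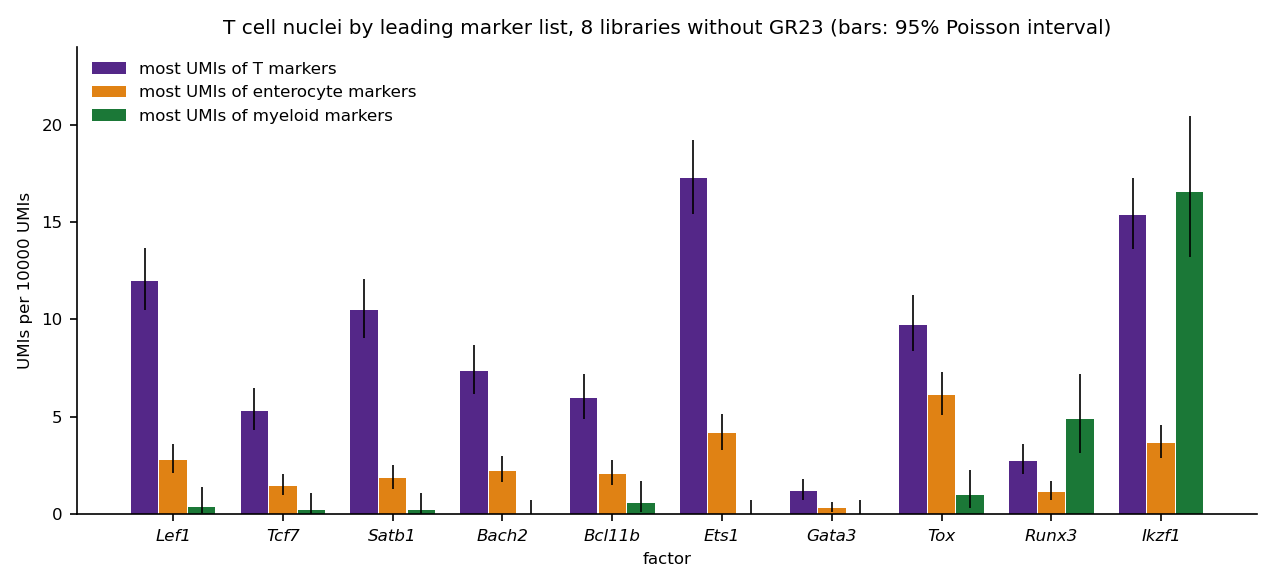
UMIs per 10000 UMIs (y axis) of each factor (x axis) in T cell nuclei led by T cell, enterocyte or myeloid markers, summed over the 8 libraries without GR23, with 95% Poisson counting intervals. Ikzf1 is about as high in nuclei led by myeloid markers (16.5) as in those led by T cell markers (15.4), whereas Ets1 is at 0 and 17.3.

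Tox and Bcl11b were the factors with most UMIs in enterocyte nuclei, 3903 and 435, against 28 for Lef1. Tox measured 2.06, 1.65 and 1.93 UMIs per 10000 UMIs in the enterocyte nuclei of sham, 3.00, 3.51 and 2.05 in those of placebo and 2.76, 2.28 and 1.42 in those of PL8177, with overlap between treatments. Its log2 fold change was -0.42 (SE 0.262) in sham and -0.23 (SE 0.257) in PL8177 against placebo (-0.29 and -0.11 without GR23). Bcl11b measured 0.222, 0.0686 and 0.145 in sham, 0.335, 0.450 and 0.362 across placebo and 0.196, 0.278 and 0.0941 in PL8177. All 3 sham and all 3 PL8177 libraries lay below all 3 placebo libraries, and the exact two-sided permutation p was 0.1 in each, the smallest possible. Among all genes with at least 50 UMIs, 5.04% of genes were wholly above and 15.3% wholly below in sham against placebo and 4.56% of genes were wholly above and 14.3% wholly below in PL8177 against placebo. In PL8177 against sham, 0 of 4 factors with at least 50 UMIs were free of overlap, where 6.41% of genes were wholly above and 5.01% wholly below. With edgeR the log2 fold change of Bcl11b was -1.05 (SE 0.409) in sham against placebo, with an adjusted p of 0.339 (0.166 to 0.646 over the alternatives), and -0.74 (SE 0.381) in PL8177 against placebo, with an adjusted p of 0.601 (0.507 to 0.873). Without GR23 these were -0.98 and -0.69. The 4 factors tested in enterocyte nuclei (Tox, Bcl11b, Bach2 and Ets1) had 0 calls in any comparison, where 0% of 9424 genes were called and 1172 (sham against placebo), 871 (PL8177 against placebo) and 621 (PL8177 against sham) had an unadjusted p below 0.05, Bcl11b among the first. DESeq2 gave an adjusted p to 2, 2 and 4 factors among 6132, 6132 and 9420 genes, in that order. It called 0 of these factors and 1.74, 0.815 and 0.0425% of the genes. When low counts were not filtered, edgeR called 0 of 10 factors and 0.308, 0.0484 and 0.0605% of genes, and without GR23 it called 0 of 5 factors and 0.0103, 0 and 0.0207% of genes. All 10 factors summed to 1.67 to 4.12 UMIs per 10000 UMIs in enterocyte nuclei.

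The 5 genes whose levels ran closest to the summed factors over the 18 library and cell type profiles were Prkch (Pearson r 0.979), Inpp4b (0.976), Snd1 (0.975), Thada (0.975) and Ptpn22 (0.974), out of 2801 genes compared on log2(UMIs per 10000 UMIs + 0.1). Prkch encodes a protein kinase C and Ptpn22 a phosphatase of lymphocytes. Prkch had 0.385 to 9.32 UMIs per 10000 UMIs in T cell nuclei, lowest in GR23, and a median of 0.0922 in enterocyte nuclei. The profiles fall into T cell and enterocyte nuclei of the same libraries, which share depth, so no p is given.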

How the data were processed

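Single nuclei of rat colon were profiled by droplet snRNA-seq, and the authors deposited 6 tables of UMI counts, 1 for each treatment and cell type (T cell, enterocyte), after alignment and counting with Cell Ranger 6.0.1 and clustering with Seurat 4.0.3, versions per the submitters' processing notes. Introns were counted, and the authors removed empty droplets and technical background with CellBender and kept nuclei with 200 or more genes and under 5% mitochondrial reads; their removal of doublets is not given in the sources used here. The deposited counts are raw whole numbers, and cell types are the authors' own. The 10 factors and the marker and transcription factor lists were chosen with earlier results of these data known. The file of placebo T cells stops partway through a gene. That 1 incomplete line was left out and T cell levels were read over the 15108 genes common to all tables.

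UMIs were summed by library tag and cell type, since nuclei are not replicates. Each cell type was fitted once over 9 libraries in edgeR 4.0.16 (R 4.3.3; TMM, filterByExpr, glmQLFit, glmQLFTest), and genes were called at an adjusted p below 0.05. DESeq2 1.42.0 was an alternative. The standard error is the fold change divided by the square root of F. The labels do not tie tags to rats, so p-values measure the spread between libraries, which may be technical. Levels, intervals (exact Poisson and Clopper-Pearson, which cover counting error only), exact permutation tests and ratios were computed in Python 3.11.15 (numpy 2.4.6, scipy 1.17.1, pandas 2.3.3). Scrublet in scanpy 1.11.5 called 84 of 9800 nuclei doublets, 8 of them T cell nuclei, all in GR23, and they were kept except in 1 alternative. This count moved by a few nuclei with the processor routines used for linear algebra, which were held fixed. Between libraries, 10 barcodes were shared. Thinning to 300 UMIs left out 12 sham, 44 placebo and 7 PL8177 T cell nuclei and 275, 125 and 238 enterocyte nuclei. Alternatives were no filter, each library left out in turn, thinning, doublets left out, and only nuclei with a T cell marker UMI and no more enterocyte marker UMIs. All 10 factors were named, and of other lists the 4 genes with most UMIs, except where a result turned on a gene. One such gene is not reported here. Clca4, the marker genes at 0 in GR23 or found in 1 or in all T cell libraries, and the B cell markers Ebf1 and Bank1 were named after their values were seen. The edgeR step was tested on simulated data.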

Additional observations from a re-analysis of the deposited data

How the results depend on the processing

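Depth limits the T cell results, since 8070 to 26229 UMIs stood behind GR13, GR15, GR41 and GR44, and Satb1, Bach2 and Gata3 could be tested only in some settings. No paired analysis was possible because the labels give the treatments no shared replicate numbers. The number of factors called stayed at 0 in each fit run, and of 396 fitted values under alternatives 34 had the opposite sign and 0 were called. With nuclei thinned to 300 UMIs the T cell fit held 59 genes and no factor.

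The share of T cell nuclei with a factor was 64.8% in sham and 49.4% in PL8177 when thinned, and 80.5% in placebo and 77.3% in PL8177 among nuclei with T cell markers. It ran from 24.9 to 75.2% in placebo with 1 library left out, the highest without GR23. DESeq2 gave log2 fold changes of -0.065 for Lef1 and -0.23 for Tcf7 in sham against placebo. Among nuclei with T cell markers, where 187 genes were tested, sham against placebo gave 0.058 for Tox, -0.75 for Runx3 and -0.29 for Ikzf1, PL8177 against placebo -0.31 for Runx3, and PL8177 against sham 0.43 for Ets1.

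With 1 library left out in turn, T cell log2 fold changes in sham against placebo ran from -2.12 to 5.65 for Lef1, -0.42 to 0.46 for Tcf7, -0.46 to 2.12 for Bcl11b, -0.60 to 0.33 for Tox and -0.16 to 1.10 for Ikzf1. In PL8177 against placebo they ran from -1.63 to 4.51 for Lef1, -0.96 to 0.011 for Tcf7, -0.26 to 1.99 for Bcl11b, -0.20 to 0.84 for Ets1 and -0.68 to 0.45 for Ikzf1, and in PL8177 against sham from -1.76 to 1.25 for Lef1, -0.61 to 0.81 for Bcl11b, -0.27 to 0.72 for Runx3 and -0.88 to 0.044 for Ikzf1. Leaving out GR12 or GR24 gave the extreme of Lef1 in sham against placebo. In enterocyte nuclei, Ets1 ran from -0.35 to 0.69 in sham against placebo, Bach2 from -0.21 to 1.09 in PL8177 against placebo, and Bcl11b from -0.059 to 0.85 and Tox from -0.0045 to 0.41 in PL8177 against sham. Causes of these shifts were not tested.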
